A study of Mus musculus with 6 samples.

Results

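Epididymal fat, the visceral depot that lies beside the epididymis of male mice, was compared between a Kdm4b knockout (KO) and a wild-type (WT) sample. The comparison used the 2 arrays labelled epididymal fat, chosen by those labels, of 6 arrays in the series. The other arrays held subcutaneous and brown fat of both genotypes. All samples came from male mice, 2 months old, kept at room temperature on chow and fasted for 6 hours before the tissue was taken. The KO carried the deletion in the whole body, and no other allele, transgene or agent is named for either genotype. Each genotype and depot had 1 array. The number of mice behind a sample, whether the depots shared mice, and the deleted exons are not stated in the labels. Differences are therefore given by their size, with no p-value and no measure of the spread between mice.

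KDM4B removes methyl groups from lysine residues of histone H3, a step that bears on how readily genes are transcribed. Visceral fat holds lipid-laden adipocytes within a stroma of fibroblasts and adipocyte precursors, blood and lymph vessels, a mesothelial covering, and resident macrophages and lymphocytes. Its adipocytes run a circadian clock, in which CLOCK and BMAL1 (gene Arntl) drive genes whose products, among them the Period and Cryptochrome proteins, feed back to block them. White adipocytes have fewer mitochondria than brown ones but still use them to burn fatty acids and to supply lipid synthesis.

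Expression was read as an array signal on the linear scale that the MAS5 software gives each probe set, a group of short probes to 1 transcript. Signals were raised to a floor of 63, under which they were not told apart, and compared as log2 differences, KO minus WT, so that 1 is a doubling. Each gene was represented by its brightest probe set. A gene was measured when at least 1 epididymal array was above the floor, which held for 13248 of 18194 genes, with 12748 above it in WT and 12656 in KO. The only error at hand was the disagreement between probe sets of the same gene. Their log2 differences scattered with an SD of 0.31 over 5366 genes. Among probe sets with a mean signal from 63 to 200 this SD was 0.40 (789 genes), from 200 to 1000 it was 0.29 (1726 genes) and above 1000 it was 0.18 (1217 genes). A gene entered a range only with 2 or more probe sets in it. Bright probe sets thus agreed more closely. All were read from the same 2 samples, so this SD holds no spread between mice or arrays. The KO array also differed in signs of RNA quality. The ratio of the 5' to the 3' probe set was 0.457 in WT and 0.645 in KO for Actb, 1.07 and 1.22 for Gapdh, and the probe set for the B1 repeat read 5737 and 9952. These ratios were higher in subcutaneous KO than WT too (Actb 0.538 and 0.655). Their part in the results below was not tested. Adipocyte RNA was abundant on both arrays, with Adipoq (adiponectin) at 34805 in WT and 31813 in KO.

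Few genes differed strongly. Past 2-fold in KO were 117 of the measured genes in the higher direction (0.883%) and 191 in the lower (1.44%), 308 in all (2.32%). The higher share was 2.22% in subcutaneous and 1.12% in brown fat. At 1.5-fold the counts were 581 higher (4.39%) and 875 lower (6.6%), together 11%. The strong differences were mostly in dim genes: 5.37% of the 2903 genes with a mean signal of 63 to 200 passed 2-fold, against 0.714% of the 4625 genes above 1000, of which 19 were higher and 14 lower. The split between higher and lower genes hung on the scaling. Of the genes past 2-fold, 38.0% were higher with signals as deposited, 51.3% with quantile-normalized signals and 56.5% when each array was centred on its median. Median centring also moved the median of all measured genes from -0.02 to 0.11, while quantile normalization left it at 0.01, so each list below is read against those values. Centring adds 0.13 to any difference between signals above the floor, and a value between -0.13 and 0 therefore turns positive with it. With signals as deposited, 46.6% of all measured genes were higher and 53.4% lower in epididymal KO. Each count of higher or lower list members below is read against these shares.

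**Figure D1:**
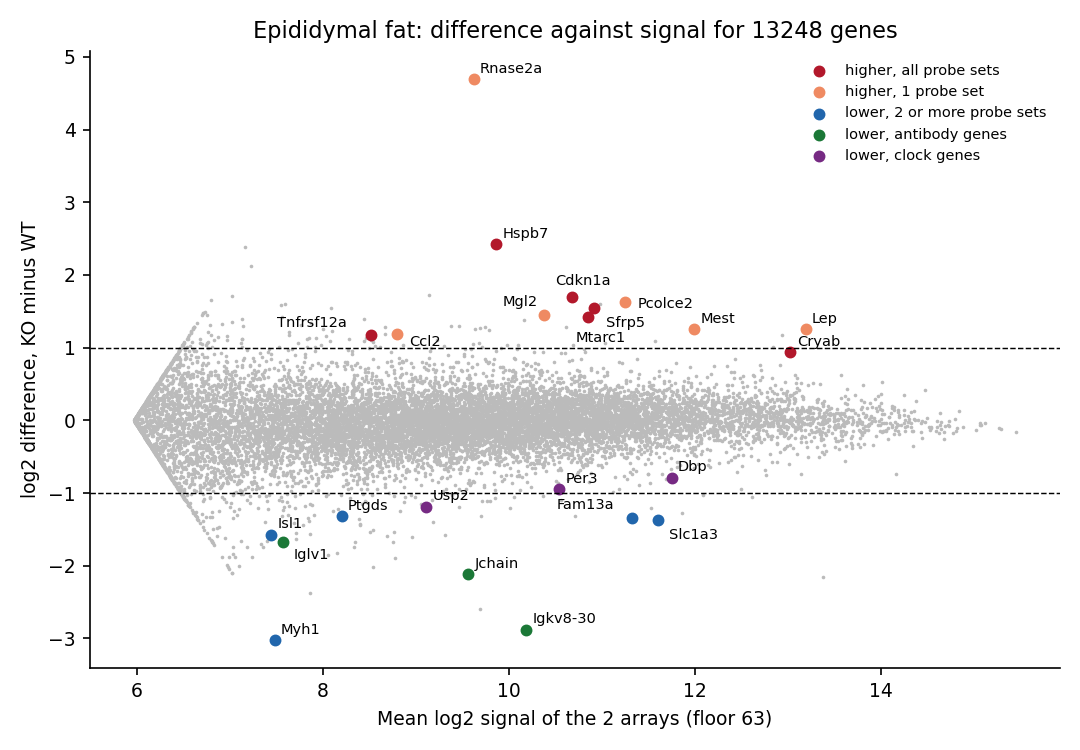
Each grey point is 1 of 13248 measured genes in epididymal fat, with the mean log2 signal of the 2 arrays (raised to the floor of 63) on the x axis and the log2 difference, KO minus WT, on the y axis; dashed lines mark 2-fold. Coloured genes are discussed in the text. Most bright genes lie close to 0, and Rnase2a at 4.70 stands far above the rest. Hspb7 lies at 2.43 and the antibody gene Igkv8-30 at -2.88.

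Kdm4b itself differed little between the arrays. Its single probe set read 227 in WT and 188 in KO, a log2 difference of -0.27 that is smaller than the SD between probe sets. Larger differences were seen in subcutaneous fat (-0.80) and brown fat (-0.50). The labels do not state the deleted exons, and whether this probe set lies within them was not tested. Its value therefore does not check the label. The related demethylase genes Kdm4a (337 in WT and 381 in KO) and Kdm4c (527 in WT and 429.5 in KO) differed by 0.18 and -0.29, also within that SD.

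Genes typical of other tissues differed between the arrays and stand here before the other results. Of 29 skeletal muscle genes on the array, 25 were measured, and 23 of these were lower in KO, 12 of them by at least 2-fold, with a median of -0.95. The fast myosin gene Myh1 read 510.2 in WT and 55.5 in KO, which is at least 8.10-fold lower, and the creatine kinase gene Ckm read 364 in WT and 134 in KO (-1.44). Summed over the muscle list, the signal was 11886 in WT and 7707 in KO. The same list had a median of 0.32 in subcutaneous and -2.56 in brown fat. Of 7 seminal vesicle genes, 6 were lower in KO, with a median of -0.59. Svs5, a secreted protein gene of that gland, read 1722 in WT and 1062 in KO. All 7 were lower in subcutaneous KO as well, and all 7 were higher in brown KO. Svs5 differed by -2.34 in subcutaneous and 0.47 in brown fat. Svs4, at -0.24 in epididymal fat, differed by -2.39 and 0.27. Of 13 epididymis and testis genes on the array, 11 were under the floor on both arrays, and the other 2, Gpx5 and Prm1, were barely above it on 1 array each.

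A further group of genes, chosen after their values were seen among the largest decreases, belongs to motile cilia and to epithelium that lines ducts. Of 62 such genes on the array, 44 were measured, and 39 of those were lower in KO, 13 by at least 2-fold, with a median of -0.73. The median was -0.64 over the 31 genes above the floor on both arrays, and over the measured genes of the list it was 0.33 in subcutaneous and -0.05 in brown fat. Among the cilium genes, Tmem212 read 508 in WT and 141 in KO, and Dnah11, a dynein motor heavy chain, read 216 in WT and 70.6 in KO. Foxj1, the master transcription factor of motile cilia, read 129 in WT and 55.2 in KO, where KO was under the floor. Most epithelial genes showed the same direction. Prom1, a membrane protein of epithelial protrusions, read 945 in WT and 357 in KO. Mmp7 (matrilysin) read 535 in WT and 152 in KO, and the amino acid transporter gene Slc7a9 read 301 in WT and 89.7 in KO. Tppp3, a tubulin-binding protein gene that fibroblasts also express, went the other way, 1090.1 in WT and 1897 in KO. So did the cilium gene Tekt1 (0.29), which was near the floor. Of the epithelial genes, Pkp2 was higher, at 4273 in WT and 5488 in KO, with 1 of its 4 probe sets lower. Epcam (0.12, with its other probe set lower), Spint1 (0.01) and Aqp1 (8164 in WT and 8156 in KO) were close to level. The share of these genes in other differences was not tested. With the muscle, B and plasma cell and cilia and ductal lists left out, which was decided after the values were seen, 117 genes passed 2-fold in the higher and 161 in the lower direction.

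**Figure D2:**
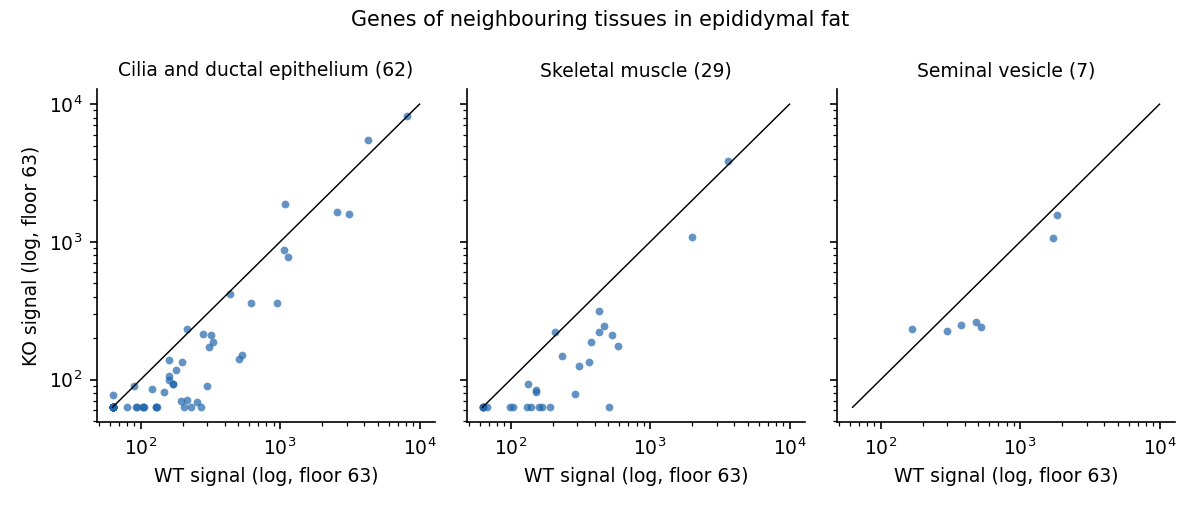
Signal in epididymal KO (y axis) against WT (x axis), both on log axes and raised to the floor of 63, for genes of motile cilia and ductal epithelium, skeletal muscle and the seminal vesicle that are on the array; the line marks equal signal. Most points of the first panels lie under the line: 39 of 44 measured cilia and ductal genes and 23 of 25 muscle genes were lower in KO.

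Clock-controlled output genes were lower in KO, while the activators Arntl and Clock were not. Of 28 clock genes listed, 24 were measured: 18 were lower and 6 higher, with a median of -0.27, against a median of -0.02 over all measured genes, of which 53.4% were lower. Quantile normalization gave a clock median of -0.24, and centring gave -0.14 against 0.11 for all genes. The clock median was 0.07 in subcutaneous fat, where 9 of 26 measured clock genes were lower. In brown fat it was -0.19, with 19 of 24 lower, where 53.6% of all measured genes were lower. The labels name no hour of tissue collection.

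The PAR bZIP factors, which bind D-box sequences and carry the clock's rhythm to metabolic genes, were among the lower genes. Dbp read 4525 in WT and 2619.5 in KO (-0.79), and its other probe set read 2575 in WT and 1408 in KO. Tef read 3731 in WT and 2635 in KO (-0.50) and Hlf 315 in WT and 261 in KO (-0.27). Nfil3, which competes with these factors for the same sites, was higher, at 88.7 in WT and 114 in KO (0.36), with a low signal in both. Every probe set of Dbp, Tef and Hlf above the floor was lower in KO.

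All 5 Period and Cryptochrome genes, the feedback repressors, were lower in KO, and all 5 were lower in brown fat too. Per3 read 2064 in WT and 1074 in KO (-0.94). Further Per3 probe sets read 641 and 315, 649 and 320.4, and 734 and 411 in WT and KO, while 2 dim ones read 52.0 and 76.3, and 109 and 95.4. The 4 bright Per3 probe sets thus lay between -1.03 and -0.84. Cry1 read 522 in WT and 379 in KO (-0.46), Per1 1509 in WT and 1214 in KO (-0.31), Cry2 911 in WT and 749 in KO (-0.28) and Per2 738 in WT and 674 in KO (-0.13). Per2 came out at 0.00 with centring and had 1 of 3 probe sets higher, while the other 4 genes stayed lower under both scalings. Cry1 ran the opposite way in subcutaneous fat, 254 in WT and 524 in KO, a contrast between depots that was not tested.

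Of 8 other measured repressors and modifiers of the clock, 6 were lower, with a median of -0.27. Usp2, which encodes a deubiquitinase whose transcript cycles strongly in many tissues, read 835 in WT and 367 in KO (-1.19) and was the single clock gene past 2-fold. Its other probe set read 748 and 484, and it was also lower in brown fat (-0.87). Ciart, a repressor of CLOCK and BMAL1, read 291 in WT and 198 in KO (-0.56). The nuclear receptor genes Nr1d1 (761 in WT and 631 in KO) and Nr1d2 (5405 in WT and 4495 in KO), whose products repress Arntl, differed by -0.27 each, with 1 probe set apiece. The activators were close to level: Arntl read 213 in WT and 227 in KO (0.09) and Clock 1299 in WT and 1521 in KO (0.23), and probe sets of each disagreed in direction. Bhlhe40 (0.03) and Noct (0.00) hardly differed. Csnk1d went the other way, 2227 in WT and 2643 in KO (0.25), with 4 of its 5 probe sets higher. Wee1 (-0.32) and Nampt (-0.22) were lower on the brightest probe set, and each had a probe set that was higher.

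**Figure D3:**
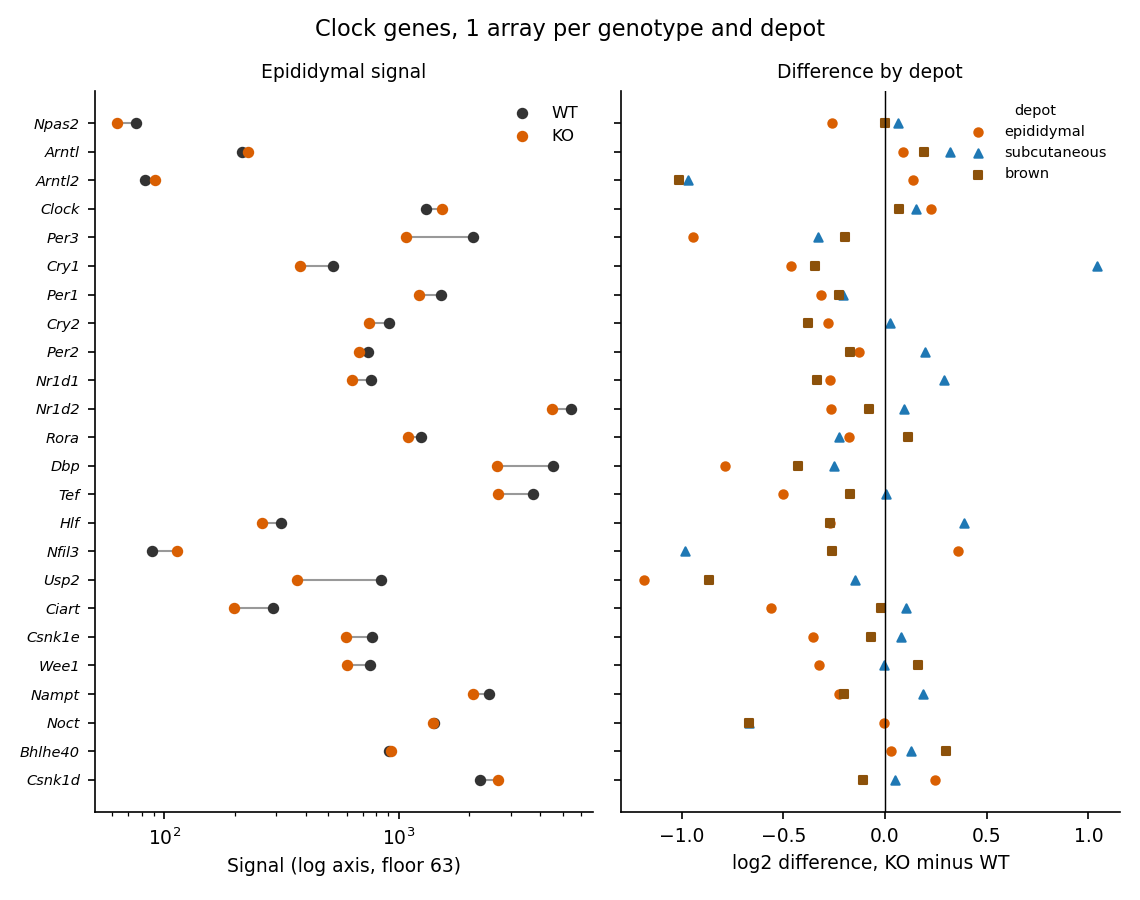
Left, signals of the 24 measured clock genes in epididymal WT (black) and KO (orange) on a log axis, 1 array each, raised to the floor of 63. Right, the log2 difference, KO minus WT, in epididymal (circles), subcutaneous (triangles) and brown fat (squares). Usp2, Per3 and Dbp have the largest epididymal decreases, at -1.19, -0.94 and -0.79.

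The promoters of Per3 and Ciart are shown because their windows are the ones among the clock genes that hold more than 1 match to a motif. RefSeq windows of 300 bases around the transcription start were searched on both strands for the E-box CACGTG, bound by CLOCK and BMAL1, and for the D-box TTATGTAA, bound by the PAR bZIP factors and NFIL3. An E-box was found in 8.09% of 27025 genes with a window (7.15% of 32851 windows) and in 5 of 22 such clock genes (Ciart, Tef, Cry1, Per1 and Bhlhe41). The D-box was found in 1.11% of genes (0.938% of windows) and in 1 clock gene, Per3, which holds 2. Both sequences are from build GRCm38.p6 on the minus strand, 5' to 3', with the motif in capitals. The Per3 window lies at chr4:151044616-151044915 and the Ciart window at chr3:95882179-95882478. The motifs are a description of the letters and do not show that a factor binds.
Per3, D-box in capitals: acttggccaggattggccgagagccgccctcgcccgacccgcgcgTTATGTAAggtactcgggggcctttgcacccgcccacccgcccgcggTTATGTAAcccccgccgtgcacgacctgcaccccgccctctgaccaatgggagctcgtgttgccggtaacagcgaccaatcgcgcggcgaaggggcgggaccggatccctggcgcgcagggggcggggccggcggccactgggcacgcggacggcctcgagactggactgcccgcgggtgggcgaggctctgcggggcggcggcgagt
Ciart, E-box in capitals: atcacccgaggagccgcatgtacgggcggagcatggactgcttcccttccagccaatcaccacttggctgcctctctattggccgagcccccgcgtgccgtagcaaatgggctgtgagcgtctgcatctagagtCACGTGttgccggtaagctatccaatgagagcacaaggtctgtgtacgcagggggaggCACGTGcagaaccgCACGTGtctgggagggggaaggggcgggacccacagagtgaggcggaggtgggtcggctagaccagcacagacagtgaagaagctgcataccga

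Respiratory chain subunits were almost level. The regulators that drive mitochondrial biogenesis and the complex IV isoforms typical of muscle or brown fat were lower. Of 73 measured subunits of the respiratory chain and ATP synthase, 53 were lower and 20 higher with a median of -0.08, and none passed 1.5-fold. Of all measured genes 53.4% were lower. After median centring the median of the subunits was 0.05 against 0.11 for all genes, so its sign depends on the scaling. The medians of the complexes were also close, at -0.07 for complex I (33 genes), -0.20 for complex II (4), -0.08 for complex III (9), -0.09 for complex IV (12) and -0.09 for ATP synthase (15), and with centring all but complex II turned positive, none past the 0.11 of all genes. Uqcrc2, a core subunit of complex III, read 10767 in WT and 8314 in KO (-0.37), and Sdha, the catalytic subunit of complex II, 9806 in WT and 8297 in KO (-0.24). Cox4i1, the common form of complex IV subunit 4, read 20684 in WT and 20252 in KO, level under each scaling. Against the SD of 0.18 among bright probe sets of a gene, which holds no spread between mice, Uqcrc2 differed by more. Both probe sets of Uqcrc2 and all 3 of Sdha were lower.

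The 4 complex IV isoforms typical of muscle or brown fat were all lower, with a median of -0.48. Cox8b read 6565 in WT and 4651 in KO (-0.50) and Cox7a1 1928 in WT and 1392 in KO (-0.47). Cox6a2, which skeletal muscle also expresses, read 211 in WT and 86.1 in KO (-1.30), and the source of its signal was not tested. The median of these isoforms was 0.49 in subcutaneous and -0.15 in brown fat. Ucp1, the uncoupling protein of thermogenic adipocytes, read 6649 in WT and 4783 in KO (-0.48), and Cidea, a lipid droplet protein of brown-type adipocytes, 4444 in WT and 2983 in KO (-0.58). Prdm16, a transcription factor of the brown lineage, was level at 161 in WT and 168 in KO.

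Among 11 regulators of mitochondrial biogenesis, 9 were lower, with a median of -0.27. Ppargc1a encodes the coactivator PGC-1 alpha and read 468 in WT and 273 in KO (-0.77), and all 5 of its probe sets were lower, from -1.11 to -0.38. Its relative Ppargc1b read 1014 in WT and 686 in KO (-0.56), and Ppara, a nuclear receptor for fatty acids, 349 in WT and 241 in KO (-0.53). Esrra (-0.16), a nuclear receptor of respiratory genes, and Tfam (-0.14), which packs and transcribes mitochondrial DNA, differed by less than the SD between probe sets. Chchd10, a protein of the mitochondrial intermembrane space that was not on a list and was noticed for its value, read 6231 in WT and 3049.8 in KO (-1.03), and both of its probe sets were lower.

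Enzymes that feed the chain leaned lower. Of 18 tricarboxylic acid cycle genes 14 were lower (median -0.15), none past 1.5-fold, and citrate synthase (Cs) read 12922 in WT and 10617 in KO (-0.28). Of 28 fatty acid oxidation genes 22 were lower (median -0.14), 2 of them past 1.5-fold and 1 past 2-fold. After median centring both medians were -0.01, against 0.11 for all genes. The 4 acyl-CoA thioesterase genes, which release fatty acids from coenzyme A, were all lower, and Acot1 read 169.7 in WT and 67.7 in KO (-1.33). The peroxisomal enzyme gene Ehhadh read 1769.9 in WT and 1168 in KO (-0.60) and was lower in subcutaneous fat as well (-1.15). Cpt1a, which lets long-chain fatty acids into mitochondria, was higher at 1593 in WT and 1909 in KO (0.26).

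The machinery that makes and imports mitochondrial proteins leaned the other way. Of 74 mitochondrial ribosome genes 46 were higher, with a median of 0.09, and of 17 import and dynamics genes 11 were higher, also with a median of 0.09. Among all measured genes 46.6% were higher. The lean was in the large ribosome subunit, with 31 of 45 higher (median 0.11). The small subunit was level, with 15 of 29 higher (median 0.01, and -0.01 after quantile normalization). The ribosome's median was 0.06 after quantile normalization and 0.22 after median centring, with 0.01 and 0.11 for all genes. Mrps36, now known as a subunit of the oxoglutarate dehydrogenase complex, was the single ribosome-listed gene past 1.5-fold, at 1687 in WT and 2682 in KO (0.67). Mrps22 read 1236 in WT and 1844 in KO (0.58). In the large subunit Mrpl39 read 6517 in WT and 4953 in KO (-0.40), so members differed in both directions. Fis1, a protein of mitochondrial fission, read 3594 in WT and 4616 in KO (0.36).

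**Figure D4:**
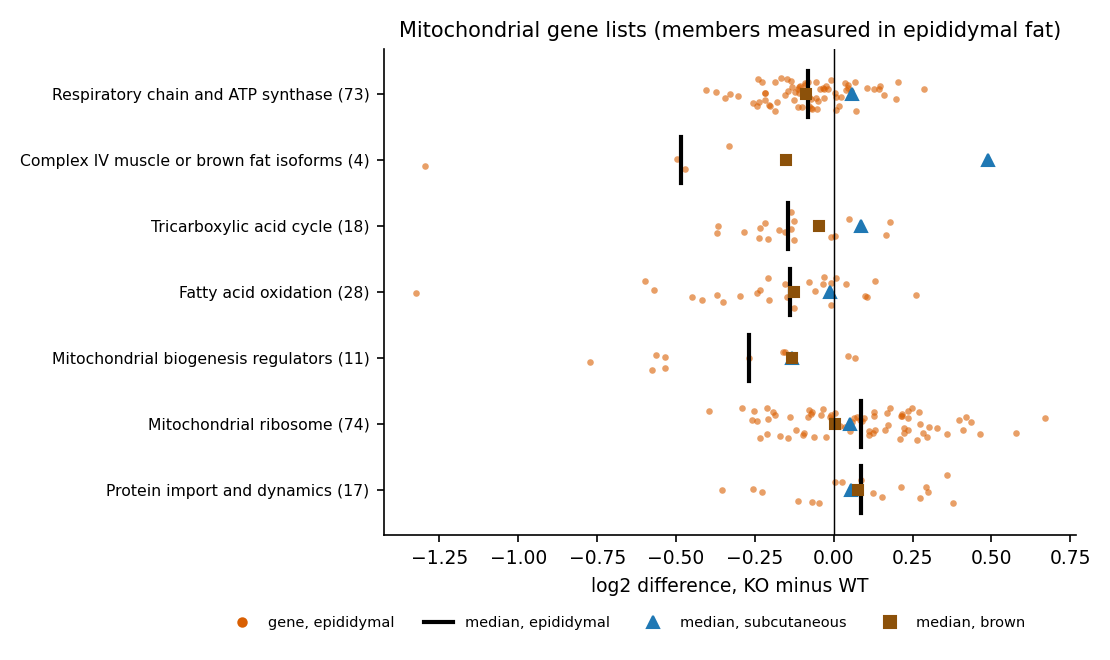
Log2 difference, KO minus WT, of each measured gene of 7 mitochondrial lists in epididymal fat (points; number of genes in parentheses), with the list's median in epididymal (bar), subcutaneous (triangle) and brown fat (square). The 73 respiratory chain and ATP synthase genes lie close to 0 with a median of -0.08, and the biogenesis regulators have a median of -0.27.

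In the stroma, collagens of types V and VI were higher in KO, while Col3a1 and Col1a2 of the bulk fibrils were level. Of 6 measured fibrillar collagen genes 5 were higher, with a median of 0.35, and of 11 other collagen genes 8 were higher, with a median of 0.49. All measured genes had 46.6% higher. The fibrillar median was -0.13 in subcutaneous and -0.46 in brown fat. These directions held after quantile normalization and median centring. Here as in all lists of cell types below, more cells of a type and more RNA per cell cannot be told apart in whole tissue.

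Type V and type VI collagens showed the pattern. Col5a1 read 3120.0 in WT and 4549.9 in KO (0.54), and its 3 probe sets ranged from 0.46 to 0.59. Col5a3 read 3646 in WT and 5528 in KO (0.60). The type VI chains, which form the beaded filaments around adipocytes, were all higher: Col6a1 at 6290.2 in WT and 8809 in KO, Col6a2 at 6663 in WT and 9639.7 in KO and Col6a3 at 4257 in WT and 6747 in KO (0.49, 0.53 and 0.66). Among the bulk fibrillar collagens Col3a1 read 22853 in WT and 23308 in KO (0.03) and Col1a1 1006 in WT and 1233 in KO (0.29). Col1a2 read 14310.3 in WT and 14085 in KO (-0.02, 0.11 with centring), and its probe sets disagreed in direction. Col14a1, a collagen that decorates fibrils, read 1273 in WT and 2522 in KO (0.99), and Col12a1, of the same class, 154 in WT and 335 in KO (1.12). Col7a1, the anchoring fibril collagen, was lower, at least 1.80-fold, at 113 in WT and 45.9 in KO.

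Genes that process or surround the fibrils leaned higher with less agreement. Pcolce2, an enhancer of procollagen cleavage, read 1388 in WT and 4284 in KO (3.09-fold higher), while it differed by -0.11 in subcutaneous and -0.37 in brown fat. Lox, which cross-links collagen, read 1330.0 in WT and 1994 in KO (0.58), and the collagen chaperone gene Serpinh1 8028 in WT and 11222 in KO (0.48). In all, 8 of 12 collagen processing genes were higher (median 0.19), 2 of them past 1.5-fold. Of 22 matrix glycoproteins 15 were higher (median 0.12). The microfibril gene Mfap5 read 3061 in WT and 5089 in KO (0.73) with both probe sets higher, and fibronectin (Fn1) 7717 in WT and 10278 in KO (0.41), where its second probe set differed by -0.19. Of 13 proteoglycan genes 9 were higher (median 0.11), 3 of them past 1.5-fold, against 1 past it in the lower direction. Aspn (1076 in WT and 1729.8 in KO) and Vcan (946 in WT and 1481 in KO) were higher, and Podn (1301 in WT and 772 in KO) and Dcn (24084 in WT and 20435 in KO) lower. Basement membrane genes had a median of -0.02 (0.12 with centring), with Col4a2 (0.52) and Nid2 (0.71) higher and Col4a4 (-0.65) lower.

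Matrix proteases went in opposite directions. The gelatinase genes Mmp2 (1353 in WT and 807 in KO) and Mmp9 (290.1 in WT and 163 in KO) were lower, with log2 differences of -0.75 and -0.83, all their probe sets lower and the same direction in subcutaneous (-1.01 and -0.69) and brown fat (-1.05 and -1.46). Mmp14, which activates the Mmp2 product, was lower as well, at 1161 in WT and 862 in KO (-0.43). Adam12, a protease gene active in forming fat and muscle, read 540.3 in WT and 1001 in KO (0.89), and the macrophage elastase gene Mmp12 1013 in WT and 1616 in KO (0.67). Adamts5, which cleaves versican and related proteoglycans, read 4729 in WT and 7248 in KO (0.62), with its 3 probe sets from 0.61 to 0.83. Of 13 measured proteases 6 were higher and 7 lower.

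Fibroblast and precursor genes differed in both directions. Of 25 measured, 14 were higher and 11 lower (median 0.09), with 5 past 1.5-fold higher and 2 lower. Sfrp5, an adipocyte Wnt antagonist whose level follows fat mass, read 1131 in WT and 3295 in KO (1.54), and its other probe set 99.9 and 524. Sfrp1, of the same family, read 1029.5 in WT and 537 in KO (-0.94), with 4 of its 5 probe sets lower. Mest, an imprinted gene tied to fat mass expansion, read 2642 in WT and 6314 in KO (1.26), and Dact2, a modulator of Wnt signalling, 147 in WT and 374 in KO (1.34). Sfrp5 and Mest were also higher in subcutaneous fat (1.35 and 2.05). Pi16, a marker of early precursors, read 802 in WT and 1436 in KO (0.84), but Dpp4, which marks the same cells, read 989 in WT and 926 in KO (-0.09, and 0.04 with centring). Pdgfra, the general fibroblast marker, was lower at 2327 in WT and 1789 in KO (-0.38), and F3, a marker of a precursor subset, 1602 in WT and 972 in KO (-0.72).

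Vessel genes were level and mesothelial genes lower. Over 26 endothelial genes the median was -0.02 and over 13 mural cell genes 0.00, and with centring they stood at 0.12 and 0.14, near the 0.11 of all genes. Cdh5, the endothelial cadherin, read 2106 in WT and 2243 in KO, and Pecam1 774 in WT and 696 in KO. Lyve1, found on lymphatic vessels and on some macrophages, read 3187 in WT and 4774 in KO (0.58), while Reln, expressed by lymphatic endothelium, read 492 in WT and 256 in KO (-0.94). Prox1, the defining lymphatic transcription factor, was under the floor on both arrays. Angpt1, a ligand that steadies vessels, read 1098 in WT and 368 in KO (-1.58), and Vegfa, the main vessel growth factor, 1985 in WT and 1389 in KO (-0.52).

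Of 15 mesothelial genes 12 were lower, where 53.4% of all measured genes were. Their median was -0.34 (-0.20 after median centring). The keratin gene Krt18 read 623 in WT and 359 in KO (-0.79), the transcription factor gene Bnc1 894 in WT and 562 in KO (-0.67) and Wt1 559.8 in WT and 380.2 in KO (-0.56). The surface markers did not follow: mesothelin (Msln) read 947 in WT and 1077 in KO (0.19) and Upk3b 4839 in WT and 4651 in KO (-0.06, and 0.08 with centring). Krt8 and Krt18 also stand on the cilia and ductal list, and their origin was not tested.

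Macrophage genes leaned higher together by a small amount. Of 41 measured macrophage genes 36 were higher, with a median of 0.23, and the other scalings gave 0.27 (quantile) and 0.36 (centring). In subcutaneous fat 37 of 41 measured genes of the list were lower (median -0.39), where 45.4% of all measured genes were lower. In brown fat 27 of 38 were lower (median -0.22), where 53.6% of all were. The difference between depots was not tested. The pan-macrophage genes Adgre1 (F4/80), at 1421 in WT and 1841 in KO, C1qa, at 5905 in WT and 7646 in KO, and Cd68, at 1876 in WT and 2199 in KO, differed by 0.37, 0.37 and 0.23. The SD among probe sets this bright was 0.18, which holds no spread between mice. Csf1r, the receptor that macrophages need to survive, was level at 9291 in WT and 9725 in KO (0.07).

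A few macrophage genes differed by far more than the list. Mgl2, a lectin gene of alternatively activated macrophages and dendritic cells, read 807 in WT and 2210.0 in KO (2.74-fold higher). Arg1 (arginase), of the same activation state, read 85.8 in WT and 184 in KO (1.10), close to the floor in WT. Other genes of that state were level: Retnla read 24633 in WT and 26387 in KO, Cd163 2727 in WT and 2736 in KO and Clec10a 2217 in WT and 2275 in KO. Among genes of lipid-associated macrophages, Mmp12 was higher, while Gpnmb, at 1301 in WT and 828 in KO, was lower (-0.65), as it was in subcutaneous fat (-0.74) and in brown fat, where KO was under the floor. Trem2, the receptor that defines this state, read 190.3 in WT and 223 in KO (0.23).

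Genes of antigen presentation by MHC class II leaned higher. H2-Ab1 read 4389 in WT and 6143 in KO (0.49) with its 3 probe sets from 0.49 to 0.79. H2-Eb1 read 7064 in WT and 9347 in KO (0.40) and the invariant chain gene Cd74 6643 in WT and 8560.4 in KO (0.37), while H2-Aa was level (0.07). H2-Ob, expressed mainly in B cells, was lower (-0.70). Over 9 class II genes, 6 were higher and the median was 0.32. Of 8 measured dendritic cell genes 5 were higher and 3 lower (median 0.21). Cd209a read 348 in WT and 613 in KO (0.82) and the growth factor receptor gene Flt3 63.7 in WT and 138 in KO (1.12), the latter near the floor in WT, while Zbtb46, a factor of conventional dendritic cells, read 317 in WT and 256 in KO (-0.31). Class I genes were level (median -0.07 over 8, and 0.06 with centring).

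Of 27 measured chemokine and cytokine genes 21 were higher, where 46.6% of all measured genes were. Their median was 0.29, against 0.04 in subcutaneous and -0.32 in brown fat. The monocyte-attracting chemokine genes Ccl2, at 295 in WT and 672 in KO, and Ccl7, at 177 in WT and 362 in KO, were 2.28-fold and 2.05-fold higher. Ptx3, an acute phase pattern-recognition protein gene, read 111 in WT and 338 in KO (3.05-fold higher). Smaller increases were seen for Cxcl1 (0.50), Cxcl12 (0.54, with its other probe set lower), Lbp (0.53) and Orm1 (0.58). Cxcl13, the chemokine that draws B cells, was lower, 1340.3 in WT and 637 in KO (-1.07), with both probe sets lower. The classic inflammatory cytokines were dim: Tnf read 73.7 in WT and 44.7 in KO, Il1b 43.7 in WT and 80.9 in KO and Il6 2.39 in WT and 32.9 in KO, the last under the floor on both arrays.

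Granulocyte genes did not move as groups. Rnase2a, a ribonuclease of the eosinophil-associated family, read 155 in WT and 4016 in KO, and 60.9 and 335 in subcutaneous fat. It has 1 probe set, and closely related family members could bind the same probes. Its relative Ear3 read 343 in WT and 444 in KO (0.37). The defining eosinophil genes Siglecf, Ccr3, Prg2 and Epx were under the floor on both epididymal arrays. The chemokine gene Ccl11, which draws eosinophils, read 2622 in WT and 3289 in KO, and Il33, the alarmin of type 2 immunity, 925 in WT and 706 in KO. Of the neutrophil genes, S100a8 read 712 in WT and 1854 in KO (1.38). Lcn2, which stands on both the neutrophil and the glucocorticoid-induced list, read 1315 in WT and 531 in KO (-1.31).

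Mast cell genes were lower. All 7 measured were lower in KO, with a median of -0.45, and 3 passed 1.5-fold. The proteases Cpa3 (606 in WT and 381 in KO) and Mcpt4 (411 in WT and 225 in KO) differed by -0.67 and -0.87. Hdc, which makes histamine, read 247 in WT and 78.2 in KO (-1.66). The list was lower in the other depots as well, with medians of -0.30 and -0.21. Kit, the receptor for the mast cell growth factor, was level (-0.05, and 0.08 with centring), and Ms4a2, part of the IgE receptor, was under the floor.

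Antibody and plasma cell genes were lower in KO, while B cell genes were mixed. Of 22 measured genes of both kinds 18 were lower, 10 by at least 1.5-fold and 5 by at least 2-fold, with a median of -0.40 (-0.26 under both other scalings). Of 15 antibody and plasma cell genes 14 were lower (median -0.75), and of 7 B cell genes 4 (median -0.37). The list was drawn up with earlier results of these data known. Jchain, Igkv8-30, Igkv14-111, Igk and Iglv1 on it are among the 25 largest decreases, so its counts and medians are no independent support. The J chain gene Jchain read 1579.8 in WT and 364 in KO (4.35-fold lower), the kappa light chain gene Igkv8-30 3168 in WT and 431 in KO and the lambda gene Iglv1 341 in WT and 107 in KO. Mzb1, a folding factor of plasma cells, read 408 in WT and 243 in KO (-0.75), and Pou2af1, a B cell coactivator, 205 in WT and 113 in KO (-0.86). The B cell marker Ms4a1 (CD20) read 409 in WT and 268 in KO (-0.61) and Cd79b, of the B cell receptor, 330.4 in WT and 255 in KO (-0.37). Its partner Cd79a, under the floor in WT, read 57.1 in WT and 81.2 in KO, Pax5 was barely above the floor in KO, and Cd74, which macrophages also express, was higher as given above. The heavy chain gene Ighm did not follow on its brightest probe set, 12786 in WT and 15521 in KO (0.28), yet another of its probe sets read 1313 and 63.1, a log2 difference of -4.38. Antibody probe sets can share sequence with related segments, so single members are uncertain. In brown fat the whole list had a median of -0.14, with 11 of 19 genes lower, and its antibody and plasma cell genes split into 6 higher and 5 lower. Among the higher were Jchain at 143 in WT and 349 in KO and Igkv8-30 at 124 and 248. In subcutaneous fat they differed by 0.46 and -0.73.

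T and NK cell genes were dim. Of 18 measured, 14 were lower (median -0.22), where 53.4% of all measured genes were. None passed 1.5-fold, and only 12 were above the floor on both arrays. Cd3e, part of the T cell receptor, read 82.9 in WT and 21.1 in KO, and Nkg7, of cytotoxic cells, 166 in WT and 144 in KO. Foxp3, the regulatory T cell factor, was under the floor on both arrays.

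**Figure D5:**
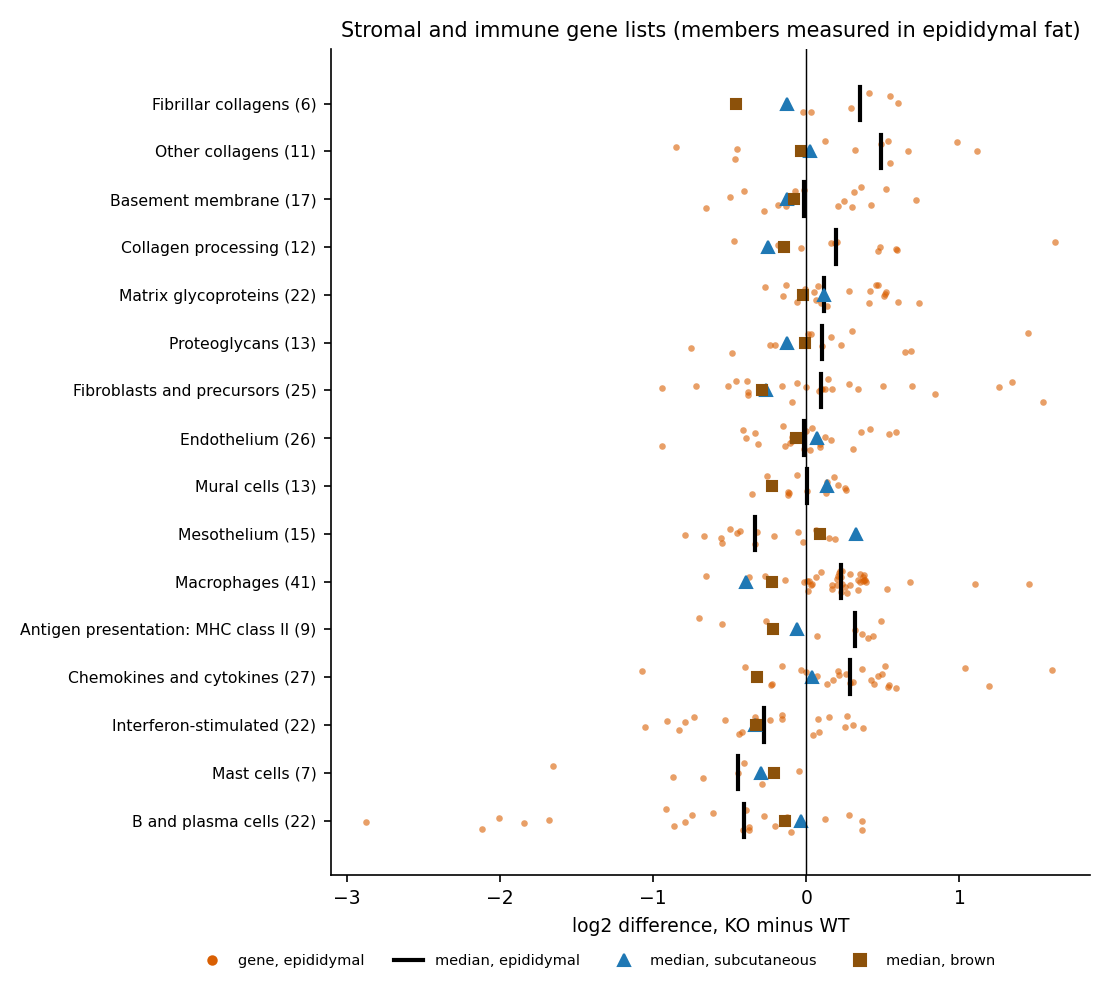
Log2 difference, KO minus WT, of each measured gene of 16 stromal and immune lists in epididymal fat (points; number of genes in parentheses), with the list's median in epididymal (bar), subcutaneous (triangle) and brown fat (square). The bar of the 41 macrophage genes is at 0.23 and that of the fibrillar collagens at 0.35, where the other depots lie below 0, while the medians of the interferon-stimulated genes lie below 0 in all 3 depots.

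Interferon-stimulated genes had medians below 0 in all 3 depots. Of 22 measured in epididymal fat 14 were lower, 5 of them past 1.5-fold, with a median of -0.28. Of all measured genes 53.4% were lower, and 6.6% were lower past 1.5-fold. The list's medians were -0.34 in subcutaneous and -0.33 in brown fat, against 0.04 and -0.03 for all genes. The epididymal one was -0.15 after median centring. Irf7, the transcription factor that amplifies the interferon response, read 407 in WT and 217 in KO (-0.91). Oasl2 (498 in WT and 280.0 in KO) and Oas2 (324 in WT and 187 in KO), of the oligoadenylate synthetase family that senses viral RNA, differed by -0.83 and -0.79. Ifi27l2a, a bright gene of the class, read 23647 in WT and 14232 in KO (-0.73), and Zbp1, a sensor of nucleic acid, 174 in WT and 83.9 in KO (-1.06), with its other probe set higher (0.25). Ifit1, whose product binds foreign RNA, read 511 in WT and 353 in KO (-0.53), but its neighbours in function Ifit3 (0.05) and Ifit2 (0.37) did not follow.

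The promoter of Ifit1 is shown as an example of an element that many listed genes hold. The core of the interferon-stimulated response element, which reads GAAA, any 2 bases, GAAA on either strand, was found in 3.99% of the 27025 genes (3.44% of the 32851 RefSeq windows) and in 11 of 17 listed interferon genes with a window. Genes with the element differed in both directions here, among them Ifit1 (-0.53) and Ifit3 (0.05). The Ifit1 window lies at chr19:34640639-34640938 on the plus strand of GRCm38.p6. Its 2 matches, in capitals, read as the reverse complement of the core.
Ifit1, element in capitals: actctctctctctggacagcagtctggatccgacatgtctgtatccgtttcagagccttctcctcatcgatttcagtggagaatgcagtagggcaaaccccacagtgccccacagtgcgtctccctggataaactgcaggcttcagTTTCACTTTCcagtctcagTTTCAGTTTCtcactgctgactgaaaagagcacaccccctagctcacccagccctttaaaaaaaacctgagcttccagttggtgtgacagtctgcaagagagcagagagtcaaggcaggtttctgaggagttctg

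Some single genes rest on several probe sets that agreed. Of 6022 genes with at least 2 probe sets above the floor, 37 had all of them past 1.5-fold in the higher direction (0.614%) and 68 in the lower (1.13%). Hspb7, a small heat shock protein gene, read 402 in WT and 2162 in KO, and its other probe sets 217 and 732, and 31.9 and 176. Cdkn1a, the cell cycle inhibitor p21, read 909 in WT and 2943 in KO on 1 probe set and 489 and 1181 on the other. Cryab, another small heat shock protein gene, read 6028 in WT and 11552 in KO and was higher in all 3 depots (0.94, 0.91 and 1.29). Tnfrsf12a, the receptor for the cytokine TWEAK, read 244 in WT and 549 in KO and was also higher in all 3 depots. Vgll3, a transcriptional cofactor that restrains adipocyte formation, read 1153 in WT and 2364 in KO, and its 3 probe sets ranged from 0.79 to 1.35. Serpinf1, which encodes the antiangiogenic factor PEDF, read 5099 in WT and 8632 in KO (0.76).

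Slc1a3, a glutamate transporter gene, had the most agreeing probe sets among the lower genes: all 6 were lower, from -2.02 to -0.80, and its brightest read 5017 in WT and 1941 in KO. It was lower in subcutaneous and brown fat too (-1.30 and -0.80). Fam13a, a gene that human studies tie to fat distribution, read 4070.2 in WT and 1609 in KO (-1.34). Rnf144b, a ubiquitin ligase gene, read 4472 in WT and 1948 in KO and hardly differed in subcutaneous fat (-0.02). Isl1, a transcription factor gene expressed in visceral fat, read 301 in WT and 101 in KO and was under the floor in both other depots. The positional genes Hoxa9 and Hoxb3 were lower, with log2 differences of -0.88 and -0.65. The ductal gene Slc26a3 and the muscle genes Myh1, Tnni2 and Ttn also stand among the 68.

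Some large differences rest on probe sets that disagree. Mcm2, a replication gene, read 529 in WT and 102 in KO on its brightest probe set but 105 and 163 on the other. Rpl41, a ribosomal protein gene, read 22564 in WT and 5047 in KO, whereas its other probe sets above the floor reached 0.02. On the cell cycle list, which holds Mcm2, 13 of 16 genes were higher (median 0.32), where 46.6% of all measured genes were. Birc5 (survivin) read 120.1 in WT and 221 in KO, Rrm2 253 in WT and 436 in KO and Ccna2 (cyclin A2) 194 in WT and 328 in KO, with every probe set of Rrm2 and Ccna2 above the floor higher. Mki67, the usual proliferation marker, differed by 0.33.

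Most adipocyte core genes were close to level. Of 17, 13 were lower, with a median of -0.10 that turned to 0.04 with centring, and Fabp4 read 40913 in WT and 37958 in KO. Lep, which encodes the satiety hormone leptin, read 6063 in WT and 14421 in KO (1.25), alike in subcutaneous fat (1.25). Cholesterol synthesis genes were higher in 16 of 19 cases (median 0.35), where 46.6% of all measured genes were. Their medians were larger in subcutaneous (0.61) and brown fat (0.64). Sqle (squalene epoxidase) read 270.4 in WT and 615 in KO (1.19), and Hmgcs1, at the start of the pathway, 5922 in WT and 10042 in KO (0.76), with 1 of its 5 probe sets lower. Glucocorticoid-induced genes had a median of -0.35 but a mean of 0.020. Tsc22d3, a direct glucocorticoid target, was higher at 5276 in WT and 8552 in KO with probe sets in both directions, and Errfi1 lower at 3227 in WT and 1972 in KO with both probe sets lower. Mt2 was higher at 5182 in WT and 10436 in KO (1.01), as were Mt1 (0.43, both probe sets higher) and Ddit4 (0.45). Fkbp5 (-0.38, with its other probe set higher), Sgk1 (-0.42), Zbtb16 (-0.45) and Pdk4 (-0.45) were lower.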

How the data were processed

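Total RNA of epididymal, subcutaneous and brown fat was hybridised to 6 Affymetrix arrays, 1 per depot and genotype. The deposited intensity values are linear, and per the submitters' processing notes the authors made them with the MAS5 method of Affymetrix Expression Console, with no version named. Each array had a 2%-trimmed mean of 500.0. Detection calls were not used. Names came from 34958 probe sets with 1 gene symbol, of which 34754 matched a RefSeq table (GRCm38.p6). The members, the 52 gene lists and the rules were chosen with earlier results of these data known.

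Intensities were floored at 63 and put on the log2 scale, and the probe set with the highest mean over the arrays stood for a gene. A gene is called past a fold when its brighter array is above the floor. Folds against a signal no higher than the floor are lower bounds ("at least"). Named genes are the 25 largest changes per direction with a brighter array of 126 or more, no probe set above the floor going the other way and no clone name, genes whose probe sets all pass 1.5-fold, core list members, and list members past 1.5-fold. Genes said to be noticed for their values fall outside it. Computations used Python 3.11.15 with numpy 2.4.6 and pandas 2.3.3, and were tested on simulated data. Alternatives were other scalings, floors of 40 and 100, log2(signal + 64), the mean of all probe sets, dropping cross-hybridising probe sets (suffix _x_at or _s_at), and folds of 1.5 and 3.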

Additional observations from a re-analysis of the deposited data

Results flagged for a closer look

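For 12 of the 409 genes recomputed under the alternatives, the difference between KO and WT was at least 2-fold in epididymal fat and at least 2-fold the opposite way in another depot, with 1 array on each side. The 409 were the named genes, chosen in part for their epididymal difference and in part from the lists. The count of 12 and its grouping below follow that choice. Of all measured genes 2.22% in subcutaneous and 1.12% in brown fat were at least 2-fold higher in KO. The share of all genes that ran opposite ways between depots was not counted. The difference between depots was not tested. Muscle genes make up the largest group, lower in epididymal and higher in subcutaneous KO: Myh1 (-3.02 and 4.33), Mb (-1.41 and 4.33), Tcap (-1.36 and 1.42), Myh2 (-1.16 and 3.63), Myl3 (-1.07 and 1.67) and the muscle isoform gene Cox6a2 (-1.30 and 1.52). The hair keratin-associated gene Krtap12-1 (-1.88 and 2.48) did the same. So did Lcn2, of the neutrophil and glucocorticoid-induced lists (-1.31, and at least 2-fold higher in subcutaneous KO, where WT was under the floor). Epididymal KO was under the floor for Myh1, Mb, Tcap, Myh2 and Myl3, and subcutaneous WT for Myh2, Myl3 and Krtap12-1, so these sizes are lower bounds. Lower in epididymal and higher in brown KO were the antibody genes Igkv8-30 (-2.88, with brown signals of 124 in WT and 248 in KO) and Jchain (-2.12 and 1.29), the seminal vesicle gene Svs2 (-1.12 and 1.17) and Mcm2 (-2.37 and 1.06), whose other epididymal probe set was higher (0.64). Values are log2 differences, KO minus WT.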

How the results depend on the processing

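Of the values recomputed for counts and list medians, 416 stayed within the limit set (1.5 times for a count, the SD between probe sets for a median), 19 moved beyond it, and 4 came from a median of at least 0.1 in size that changed sign. For named genes 2657 stayed within that SD, 197 moved beyond it, and 1 of at least 2-fold changed sign. Sign changes of any size were seen in 28 recomputed list medians, 13 of them with median centring, and in 66 values of named genes, 37 of them with centring. The count of genes at least 2-fold higher was 199 after median centring, 205 with a floor of 40, 74 with a floor of 100 and 60 with log2(signal + 64). The count at least 2-fold lower was 313 with a floor of 40, 109 with log2(signal + 64) and 102 with the mean of all probe sets. At 1.5-fold the counts were 581 and 875, and at 3-fold 11 and 42. Genes whose probe sets all agreed numbered 136 higher and 218 lower at 1.3-fold, and 44 lower after quantile normalization. Among medians of at least 0.1 in size, centring turned those of mitochondrial carriers (0.032) and complement (0.017). Taking the mean gave 0.020 for glucocorticoid-induced genes, 0.54 for eosinophil and type 2 genes and -0.49 for keratinocyte and gland genes. A floor of 100 gave -0.75 for B and plasma cell genes, 0.51 for Schwann and nerve genes and -0.61 for keratinocyte and gland genes. Without cross-hybridising probe sets the Schwann and nerve median was -0.25 and Mcm2 stood at 0.64. The cause of these shifts was not tested. No paired analysis was possible because the epididymal comparison has 1 array a side. A fit over the 3 depots with depot as a block, which would estimate a difference common to them, was not run. The number of arrays and the signal over background limit what can be read: dim probe sets of a gene scatter most.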
